A study of Mus musculus with 8 samples.

Results

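A set of 10 transcription factor genes of the AP-1 and EGR immediate early programme was followed across 8 arrays of mouse cells. The genes were Fos, Fosb, Jun, Junb, Jund, Egr1, Egr2, Egr3, Atf3 and Ier2, chosen by gene name among the probes of the array. They are 10 of the 27337 genes named on the array, and all 10 were among the 16309 genes tested. The array carries 13 probes for them, of which 12 passed the filter on dim probes.

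The cells were c-Kit+ progenitors from the fetal liver of Ebf1-/- C57Bl/6 mice. EBF1 is a transcription factor needed for B lymphocyte development, and every group, controls included, lacked the endogenous gene. OP9, a stromal cell line from mouse bone marrow, served as feeder layer, and the OptiMEM medium held 4% serum, stem cell factor and Flt3 ligand at 10 ng/ml each and interleukin 7 at 5 ng/ml. The progenitors received a pMys retrovirus that also encodes GFP. The vector carried GFP alone (Empty, 2 arrays), EBF1wt (3 arrays) or EBF1-H240A, a form with an alanine in place of a histidine (3 arrays). GFP+ cells were sorted 36 h after transduction, so EBF1 was supplied from a retrovirus and measured at a single time. The labels do not state the embryonic age. They also do not say whether the replicates of a group came from different cultures or animals, so each p-value reflects only the spread among these arrays, which may be technical. The design asks what supplied EBF1 changes, and how far EBF1-H240A does the same.

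AP-1 is a dimer of basic leucine zipper proteins, most often a FOS protein joined to a JUN protein, that binds the sequence TGACTCA. EGR proteins are zinc finger factors that bind GC-rich sites, and NAB proteins bind to them and repress their targets. Genes of both families are transcribed within minutes of a growth factor, antigen receptor, cytokine or stress signal, mostly from factors already present at their promoters (CREB and ATF proteins at sites with TGACG, and serum response factor at the CArG box), and their mRNAs decay quickly. In lymphocytes EGR factors are known as early targets of receptor signalling through the MAP kinases.

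To show the signal-response motifs in these promoters, 120 bases directly before the annotated start are printed for 5 factors that rose with EBF1wt. They come from RefSeq on GRCm38.p6 and read 5′ to 3′ on the strand of the gene. Capitals mark matches to TGACG, which is part of the cyclic AMP response element TGACGTCA, to TGACATCA, to the CArG box or to the EGR site GCGNGGGCG, on either strand.
Fos (chr12:85473770-85473889, + strand): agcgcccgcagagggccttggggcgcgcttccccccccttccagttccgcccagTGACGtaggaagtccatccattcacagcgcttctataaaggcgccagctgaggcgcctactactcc
Fosb (chr7:19310046-19310165, - strand): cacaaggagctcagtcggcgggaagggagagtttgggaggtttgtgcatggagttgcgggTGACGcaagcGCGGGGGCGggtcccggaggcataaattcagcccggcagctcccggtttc
Jun (chr4:95052223-95052342, - strand): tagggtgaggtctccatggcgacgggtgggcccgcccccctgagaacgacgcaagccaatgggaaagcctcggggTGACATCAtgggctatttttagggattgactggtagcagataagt
Junb (chr8:84978749-84978868, - strand): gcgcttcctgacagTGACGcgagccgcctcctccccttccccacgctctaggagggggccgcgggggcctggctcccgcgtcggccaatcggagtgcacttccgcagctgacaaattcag
Egr2 (chr10:67537749-67537868, + strand): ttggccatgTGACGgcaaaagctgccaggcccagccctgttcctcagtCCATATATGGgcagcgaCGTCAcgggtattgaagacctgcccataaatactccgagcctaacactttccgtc
For Egr2, with 5 annotated starts, the stretch is the first along the chromosome among those that hold both the CArG box and TGACG.

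Promoter windows from 250 bases before to 50 bases after the start were at hand for 7 of the 10 factors (Fos, Fosb, Jun, Junb, Jund, Egr2 and Atf3). TGACG, searched on both strands, was in the windows of 5 of these 7 (Fos, Fosb, Junb, Egr2 and Atf3). It was in 20.8% of all 32851 windows. A factor was counted when any of its windows matched, and Egr2 has 5, so the count and the share are not the same measure. The Fos window held it at −129 to −125 and at −66 to −62, counted from the start, and TATAAA at −33 to −28. The Fosb window held TGACG at −60 to −56 and the EGR site at −50 to −42. Jun had TGACATCA at −45 to −38, which 3.62% of windows hold. A CArG box, in 1.63% of windows, was found at −72 to −63 of Egr2, between TGACG matches at −111 to −107 and, on the minus strand, at −55 to −51. The full palindrome TGACGTCA, which contains TGACG, was in none of the 7 and in 1.79% of all windows. TGACTCA, in 5.2% of windows, and the EBF1 palindrome, in 0.904%, were also in none of the 7. Jund held none of these motifs in its window. A match is a description of the letters, not of binding. Bases beyond these windows, and the promoters of Egr1, Egr3 and Ier2, were not searched, so an absent motif may lie outside the windows.

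**Figure D1:**
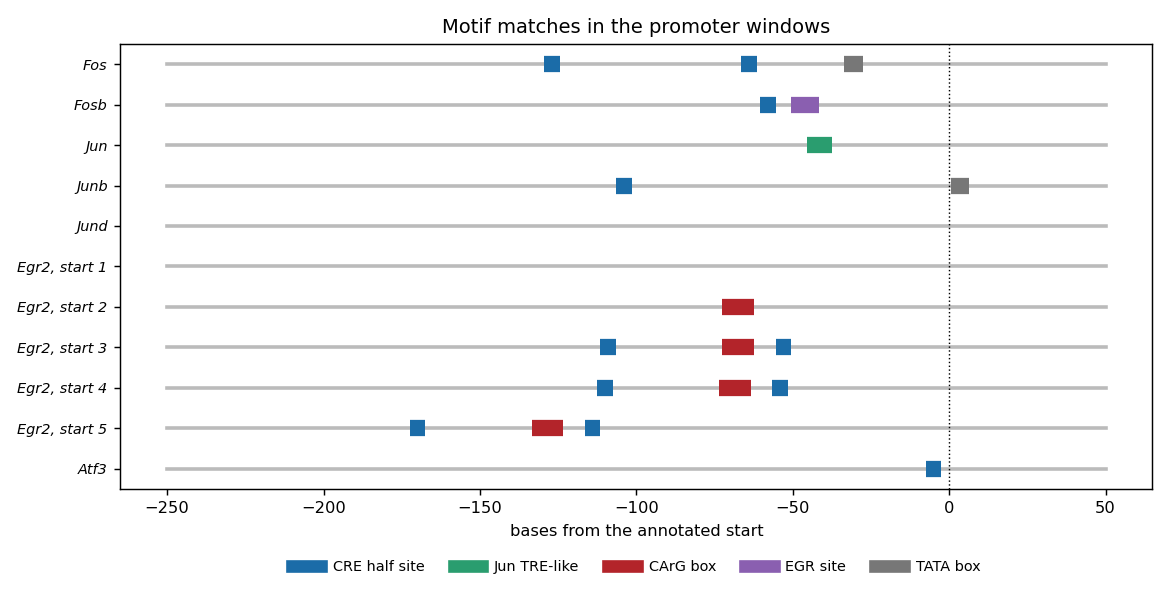
Positions of motif matches in the promoter windows of 7 factors, in bases from the annotated start (dotted line, 0), with 1 row for each of the 5 annotated Egr2 starts. Coloured boxes are the matches named in the key. TGACG (blue) appears in 5 of the 7 genes, TGACATCA (green) in Jun, and the CArG box is seen for Egr2 alone, in the windows of 4 of its 5 starts.

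Values are log2 signals of the brightest probe of a gene, after each array was scaled to the same 75th percentile. Summed signals of marker lists are the exception: they add signals on the linear scale, so the brightest genes weigh most. A difference of 1 is a 2-fold change, and a gene was called when its adjusted p (limma, Benjamini-Hochberg over 16309 genes) was under 0.05. The share of probes well above background was 54.6% to 59.6%, and arrays of a group correlated at r = 0.991 to 0.995 across genes. The arrays lay on 2 slides, each holding all 3 groups, and each slide was 1 scan. Kit was well above background on all 8 arrays. It read 10.57 and 10.65 in Empty, 9.76 to 9.86 in EBF1wt and 9.29 to 9.64 in EBF1-H240A. Of 10 progenitor genes, Kit among them, 2 rose and 5 fell with EBF1wt, and 2 rose and 6 fell with EBF1-H240A. The summed signal of 11 detected early B-lineage markers ran from 5160 to 5297 in Empty. It ran from 30684 to 34742 in EBF1-H240A and from 56985 to 63841 in EBF1wt. Most of it was Cd79b and Vpreb1 with EBF1wt, and Cd79b with EBF1-H240A. Cd79b read 14.4 to 14.5 with EBF1wt and 14.6 to 14.7 with EBF1-H240A. Vpreb1 read 14.6 to 14.9 and 10.9 to 11.4. Of the 11, 9 rose and 1 fell with EBF1wt, and 6 rose and 2 fell with EBF1-H240A. Beside both lists, 17.2% of all genes were called higher and 21.3% lower with EBF1wt. With EBF1-H240A these shares were 21.6% and 23.0%. Ebf1 itself read 10.11 and 10.20 on the Empty arrays and 10.16 to 10.44 on the others. Whether its probe lies in the transferred or the deleted part was not tested, so it checks neither.

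With EBF1wt, 7 of the 10 factors rose against Empty (Fos, Fosb, Jun, Junb, Egr1, Egr2 and Egr3) and none fell. Over all genes tested, 17.2% were called higher and 21.3% lower, 38.4% in all. With EBF1-H240A, 5 rose (Jun, Junb, Jund, Egr2 and Egr3) and none fell, beside 21.6% of all genes called higher and 23.0% lower, 44.6% in all. The median difference of the 10 was 0.72 with EBF1wt and 0.35 with EBF1-H240A, beside −0.04 and −0.003 over all genes. Both comparisons use the same 2 Empty arrays. Set directly against EBF1wt, EBF1-H240A gave 1 called factor, Egr3, which was higher, in a comparison where 3.64% of genes were called higher and 2.72% lower, 6.36% in all. At an unadjusted p under 0.05 in the same limma fits, none of the 10 was lower with EBF1wt than in Empty, 1 (Ier2) was lower with EBF1-H240A than in Empty, and 4 (Fos, Fosb, Egr1 and Ier2) were lower with EBF1-H240A than with EBF1wt. Counted by arrays that do not overlap Empty, 8 factors were higher and 1 (Atf3) lower with EBF1wt, beside 26.5% and 34.8% of all genes. With EBF1-H240A, 5 were higher and 1 (Ier2) lower without overlap, beside 31.5% and 34.0% of all genes. Between the proteins the arrays did not overlap for Egr3, higher with EBF1-H240A as for 17.0% of all genes, and for Fosb, Egr1 and Ier2, lower with it as for 12.9%. Without Empty array 1 the counts of factors called higher were 4 with EBF1wt and 2 with EBF1-H240A, and without Empty array 2 the second count was 3. In these cases the single remaining Empty array was assumed to vary like the other groups.

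**Figure D2:**
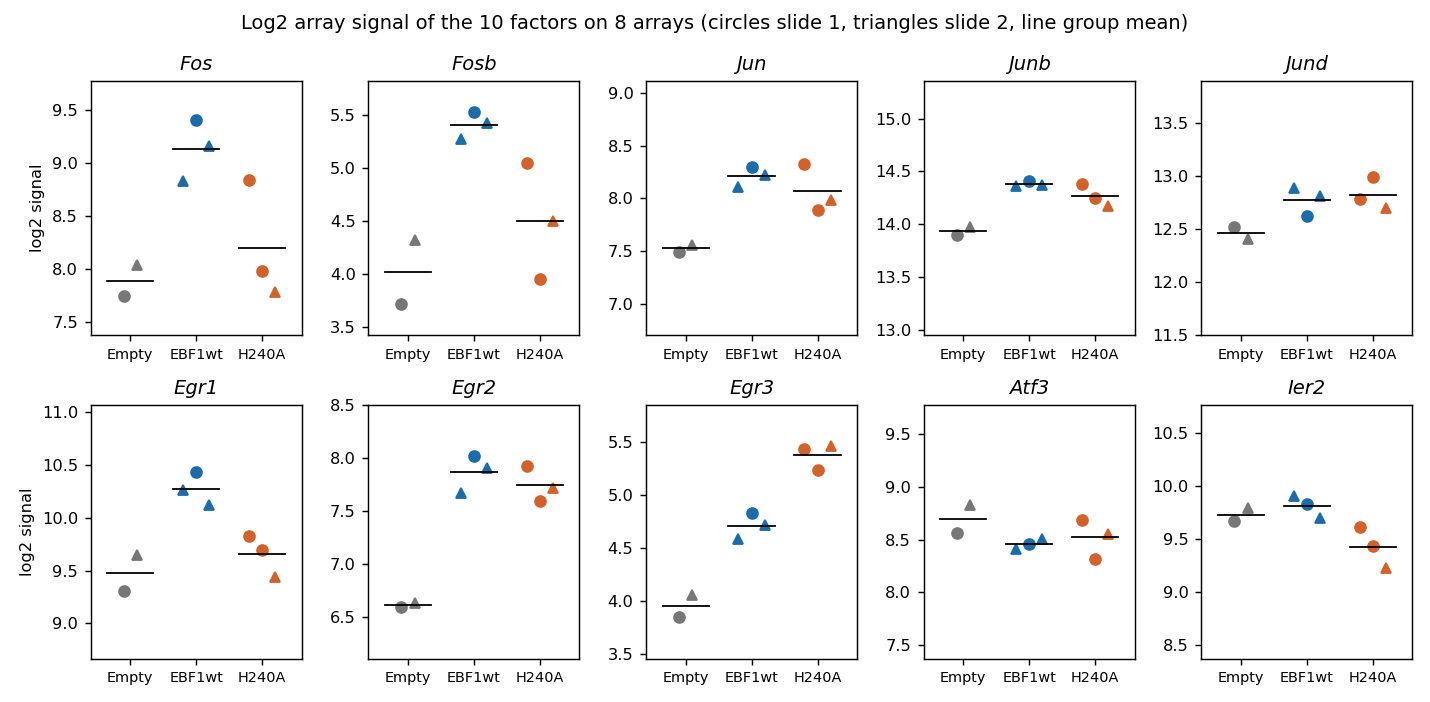
Log2 signal of each of the 10 factors on the 8 arrays (vertical axes of the same span). Circles are arrays of slide 1, triangles those of slide 2 and lines the group means. Fosb and Egr1 are highest on EBF1wt arrays, and so is the group mean of Fos, although its EBF1-H240A array 1 is level with the lowest EBF1wt array. Egr3 is highest on EBF1-H240A arrays, and Jun, Junb and Egr2 are above Empty on all 6 EBF1 arrays.

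**Figure D3:**
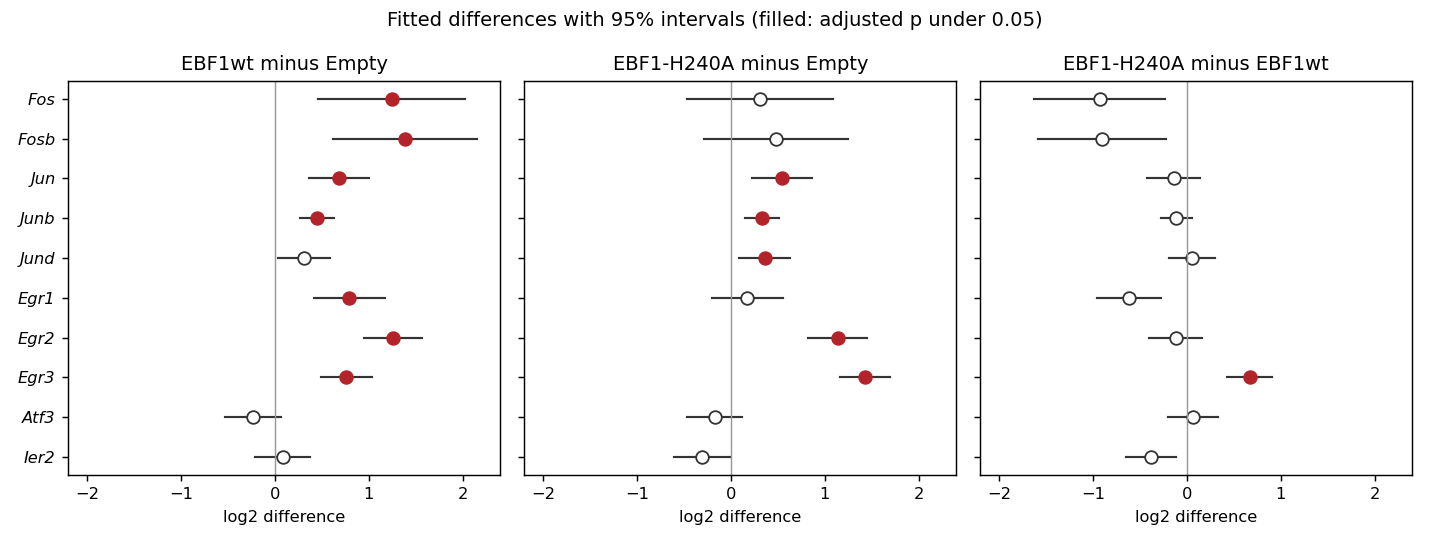
Fitted log2 differences of the 10 factors in the 3 comparisons, with 95% intervals as lines. Filled points passed an adjusted p of 0.05, which holds for 7 factors in the left panel, 5 in the middle panel and Egr3 alone in the right panel.

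Fos and Fosb encode FOS subunits, which cannot pair with each other and bind DNA with a JUN partner. The Fos probe (mm9, chromosome 12, 86817900 to 86817959) read 7.74 and 8.03 on the Empty arrays, 8.82, 9.40 and 9.16 on EBF1wt arrays 1 to 3, and 8.84, 7.97 and 7.78 on EBF1-H240A arrays 1 to 3. All EBF1wt arrays were above both Empty arrays, while the EBF1-H240A arrays were split, with array 1 at the level of the lowest EBF1wt array and the others near Empty. Fos rose 2.37-fold with EBF1wt (log2 difference 1.24 ± 0.33 SE, adjusted p = 0.0234, limma). With EBF1-H240A its difference from Empty was 0.31 ± 0.33 (adjusted p = 0.482). The direct difference, EBF1-H240A minus EBF1wt, was −0.93 with a 95% interval from −1.63 to −0.24, and it did not pass after adjustment (adjusted p = 0.118). Within slide 1 that difference was −0.996 and within slide 2 it was −1.21. Without EBF1-H240A array 1 it was −1.25 and passed (adjusted p = 0.0403). The rise with EBF1wt did not pass without Empty array 1 (1.097, adjusted p = 0.124), without Empty array 2 (1.39, 0.0666), or without EBF1wt array 2 (1.105, 0.0667) or array 3 (1.23, 0.0568).

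Fosb was dim (mm9, chromosome 7, 19888477 to 19888536) but well above background on all 8 arrays. It read 3.72 and 4.32 in Empty, 5.27, 5.53 and 5.42 in EBF1wt and 5.05, 3.95 and 4.50 in EBF1-H240A. The EBF1wt arrays (5.41 ± 0.13, SD, n = 3) lay above every other array, and EBF1-H240A array 1 was again the highest of its group. Fosb rose 2.62-fold with EBF1wt (1.39 ± 0.32, adjusted p = 0.0145), a difference that was 1.08 without Empty array 1 (adjusted p = 0.0962) and 0.47 with normexp, another background correction. With EBF1-H240A it differed from Empty by 0.48 ± 0.32 (adjusted p = 0.271). EBF1-H240A minus EBF1wt was −0.91, with an interval from −1.59 to −0.22 (adjusted p = 0.120), although the arrays of these groups did not overlap.

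Jun, Junb and Jund encode the JUN subunits: JUN is a strong activator, JUNB has weaker activity of its own, and JUND is the most constantly expressed. Jun (mm9, chromosome 4, 94715864 to 94715923) read 7.49 and 7.56 in Empty, 8.11, 8.30 and 8.22 in EBF1wt and 8.33, 7.89 and 7.99 in EBF1-H240A. All 6 EBF1 arrays lay above both Empty arrays, and the 2 EBF1 groups overlapped. The rise was 1.61-fold with EBF1wt (0.68 ± 0.13, adjusted p = 0.00743) and 1.45-fold with EBF1-H240A (0.54 ± 0.13, adjusted p = 0.0160). The EBF1-H240A call was lost without Empty array 1 (0.50, adjusted p = 0.0837) or Empty array 2 (0.58, adjusted p = 0.0575). EBF1-H240A minus EBF1wt was −0.14, with an interval from −0.43 to 0.14 (adjusted p = 0.549).

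Junb (mm9, chromosome 8, 87500881 to 87500940) read 13.90 and 13.97 in Empty, 14.37, 14.41 and 14.38 in EBF1wt and 14.39, 14.25 and 14.18 in EBF1-H240A. All 6 EBF1 arrays were above both Empty arrays. Junb rose 1.36-fold with EBF1wt (0.44 ± 0.08, adjusted p = 0.00406) and 1.26-fold with EBF1-H240A (0.33 ± 0.08, adjusted p = 0.0111). Its dimmer probe ran the same way, with 13.21 and 13.20 in Empty, 13.42 to 13.78 in EBF1wt and 13.50 to 13.64 in EBF1-H240A. The EBF1-H240A call on the brighter probe was lost without Empty array 1 (adjusted p = 0.0687), with normexp (0.0512) and with the value table (0.111). EBF1-H240A minus EBF1wt was −0.11 (interval −0.27 to 0.05, adjusted p = 0.393).

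Jund (mm9, chromosome 8, 73224436 to 73224495) read 12.52 and 12.40 in Empty, 12.88, 12.62 and 12.81 in EBF1wt and 12.78, 12.99 and 12.70 in EBF1-H240A. Neither EBF1 group overlapped Empty. The difference from Empty was 0.36 with EBF1-H240A (1.28-fold, adjusted p = 0.0414) and 0.31 with EBF1wt (adjusted p = 0.0762). The EBF1-H240A call was lost in 10 of 20 alternatives, among them leaving out Empty array 1 (adjusted p = 0.0884), Empty array 2 (0.187), EBF1wt array 3 (0.0578), or EBF1-H240A array 1 (0.0740) or array 2 (0.0919). The 2 EBF1 groups differed by 0.05 (interval −0.19 to 0.30).

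Egr1, Egr2 and Egr3 encode related zinc finger factors that bind the same kind of site. Egr1 read 9.31 and 9.65 in Empty, 10.26, 10.43 and 10.12 in EBF1wt and 9.83, 9.69 and 9.44 in EBF1-H240A. The EBF1wt arrays were above all others, while EBF1-H240A arrays overlapped Empty. Egr1 rose 1.73-fold with EBF1wt (0.79 ± 0.16, adjusted p = 0.00807), a call lost without Empty array 1 (0.62, adjusted p = 0.0571). Its difference between EBF1-H240A and Empty was 0.18 ± 0.16 (adjusted p = 0.410). The direct difference, EBF1-H240A minus EBF1wt, was −0.62 with an interval from −0.95 to −0.28, just short of the threshold (adjusted p = 0.0529). It was −0.67 within slide 1 and −0.75 within slide 2, and it passed in 4 of 20 alternatives.

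Egr2, known for its part in lymphocyte receptor responses and in the glia that myelinate nerves, rose with both proteins. Its probe (mm9, chromosome 10, 67004758 to 67004817) read 6.59 and 6.62 in Empty, 7.67, 8.01 and 7.90 in EBF1wt and 7.92, 7.59 and 7.71 in EBF1-H240A. Every EBF1 array stood clear of Empty, and the 2 EBF1 groups overlapped. The rise was 2.39-fold with EBF1wt (1.26 ± 0.13, adjusted p = 0.000504) and 2.19-fold with EBF1-H240A (1.13 ± 0.13, adjusted p = 0.000625). Both calls held in all 20 alternatives, leaving out each array in turn included. EBF1-H240A minus EBF1wt was −0.12, with an interval from −0.40 to 0.16 (adjusted p = 0.612).

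Egr3 was dim, rose with both proteins and was highest with EBF1-H240A. The probe used (mm9, chromosome 14, 70481979 to 70482038) read 3.85 and 4.06 in Empty, 4.59, 4.84 and 4.72 in EBF1wt and 5.44, 5.24 and 5.46 in EBF1-H240A. The 3 groups were separate and in that order. Egr3 rose 1.70-fold with EBF1wt (0.76 ± 0.11, adjusted p = 0.00226) and 2.69-fold with EBF1-H240A (1.43 ± 0.11, adjusted p = 0.00012), and both calls held in all 20 alternatives, although with normexp background correction the differences were 0.31 and 0.56. EBF1-H240A exceeded EBF1wt 1.59-fold (0.67 ± 0.10, interval 0.43 to 0.91, adjusted p = 0.0148), by 0.50 within slide 1 and 0.81 within slide 2. That last call was lost without EBF1wt array 1 (0.60, adjusted p = 0.0562), EBF1-H240A array 1 (0.64, 0.0598) or EBF1-H240A array 3 (0.62, 0.0568), and with normexp the difference was 0.25 (0.228). On none of the 8 arrays was the second Egr3 probe well above background.

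Atf3 encodes a stress-induced ATF protein that pairs with JUN and often represses, and Ier2 encodes a short immediate early protein. Neither was called. Atf3 (mm9, chromosome 1, 192994547 to 192994606) read 8.56 and 8.83 in Empty, 8.41, 8.46 and 8.51 in EBF1wt and 8.68, 8.32 and 8.56 in EBF1-H240A. Its differences from Empty were −0.23 with EBF1wt (interval −0.53 to 0.06, adjusted p = 0.188) and −0.17 with EBF1-H240A (adjusted p = 0.304). Ier2 read 9.67 and 9.79 in Empty, 9.91, 9.83 and 9.70 in EBF1wt and 9.62, 9.43 and 9.23 in EBF1-H240A. The EBF1-H240A arrays were the lowest of the 8, by −0.31 against Empty (interval −0.60 to −0.01, adjusted p = 0.0884) and by −0.39 against EBF1wt (interval −0.65 to −0.12, adjusted p = 0.0943). Without EBF1-H240A array 1 the difference from Empty was −0.40 and passed (adjusted p = 0.0358). The dimmer Ier2 probe disagreed for EBF1wt: it read 6.91 and 6.65 in Empty against 6.00 to 6.68 with EBF1wt, a difference of −0.40, where the brighter probe gave 0.08.

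The array-by-array values separate the factors further. EBF1-H240A array 1 was the highest of its group for Fos, Fosb, Jun, Junb, Egr1, Egr2, Atf3 and Ier2, by 0.64 above the group mean for Fos and 0.55 for Fosb, but not for Jund or Egr3. Among the EBF1wt arrays, array 2 was the highest for Fos, Fosb, Jun, Junb, Egr1, Egr2 and Egr3. Empty array 2, on slide 2, read higher than Empty array 1, on slide 1, for 9 of the 10 factors, all but Jund. EBF1wt array 2 and EBF1-H240A array 1 were both on slide 1. The shares of all genes with these orders of arrays were not computed, so the counts have nothing to be read against.

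**Figure D4:**
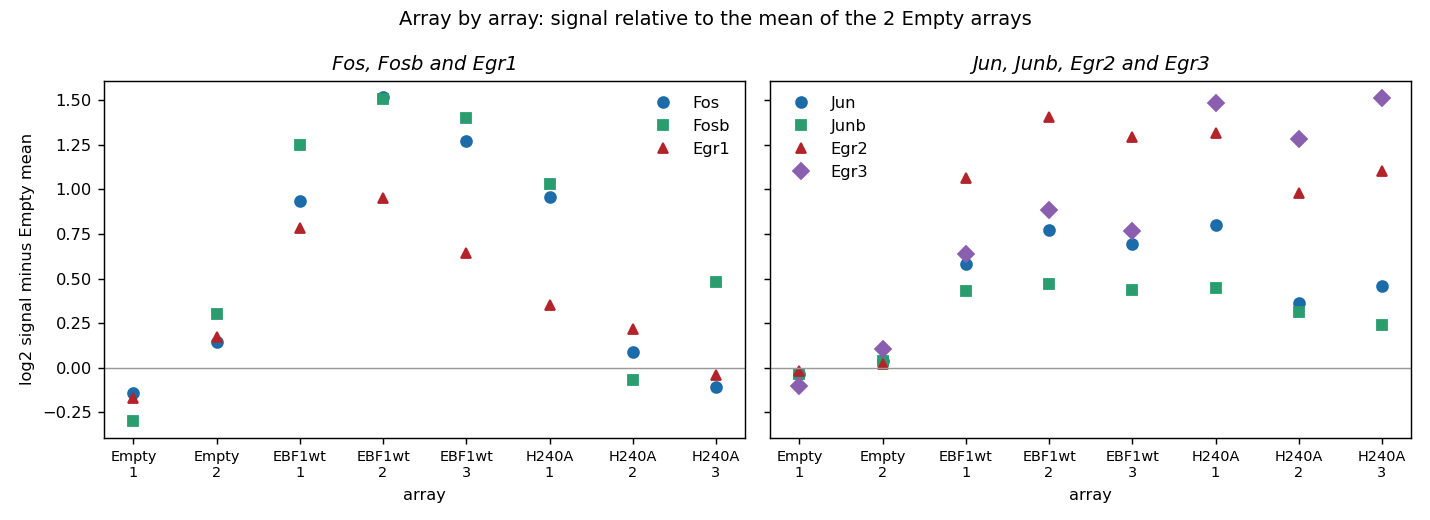
Log2 signal of each factor on each of the 8 arrays, minus the mean of the 2 Empty arrays (line at 0). In the left panel Fos, Fosb and Egr1 lie above both Empty arrays on all 3 EBF1wt arrays but not on all EBF1-H240A arrays. In the right panel Jun, Junb, Egr2 and Egr3 lie above both Empty arrays on all 6 EBF1 arrays.

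The genes whose log2 signal followed a factor most closely were found among 12816 named genes outside the lists, by Pearson r over the 8 arrays, which share groups and slides. For Fos they were Rhd (r = 0.943), Ankrd55 (0.929) and Drd4 (0.929). Ankrd55 and Drd4 were dim, at 0.74 to 3.37 and at 3.21 to 4.22 over the 8 arrays. For Jun they were Bst2 (0.980), Hfe (0.973) and Nupr1 (0.971), and for Egr1 they were Dyrk3 (0.978), Rhd (0.967) and B3gnt2 (0.954).

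The rest of the AP-1, ATF, CREB and small MAF families moved both ways. Of 18 genes tested, 6 rose and 5 fell with EBF1wt (median −0.02), and 8 rose and 5 fell with EBF1-H240A (median −0.06), so 11 and 13 were called, beside 38.4% and 44.6% of all genes. None of the 18 was called between the 2 proteins by limma, where at an unadjusted p under 0.05 there were 5 higher and 1 lower with EBF1-H240A. BATF proteins pair with JUN in place of FOS, and they held both extremes. Batf2 read 3.61 and 4.33 in Empty, 6.13 to 6.28 in EBF1wt and 6.17 to 6.80 in EBF1-H240A, a rise of 2.25 ± 0.25 (adjusted p = 0.000667) and 2.58 ± 0.25 (adjusted p = 0.000296), which was 0.88 and 1.11 with normexp. Batf3 read 9.01 and 8.998 in Empty and 7.04 to 7.46 on the 6 EBF1 arrays, and it fell by 1.79 with EBF1wt (adjusted p = 0.000193) and by 1.78 with EBF1-H240A (adjusted p = 0.000164). The remaining FOS family genes are Fosl1 and Fosl2, singled out here after their values were seen. They differed from Empty by 0.38 and 0.09 with EBF1wt (neither called) and by 0.75 and 0.25 with EBF1-H240A. Both EBF1-H240A calls (adjusted p = 0.0376 and 0.0284) were lost in many of the 20 alternatives, 14 for Fosl1 and 11 for Fosl2.

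Nab2 encodes a corepressor of EGR proteins and is itself an EGR target. It read 6.39 on both Empty arrays, 5.67, 5.76 and 5.91 in EBF1wt and 6.15, 6.25 and 6.26 in EBF1-H240A. All EBF1wt arrays were below all others. Nab2 fell by 0.61 with EBF1wt (adjusted p = 0.00158; −0.34 with normexp, still called), opposite to the 3 EGR genes, and its difference was −0.17 with EBF1-H240A (adjusted p = 0.145). EBF1-H240A exceeded EBF1wt by 0.44 ± 0.07 (adjusted p = 0.0202), a call lost in 8 of 20 alternatives, among them leaving out EBF1wt array 1 or 2 or any EBF1-H240A array (adjusted p = 0.0517 to 0.0762). Nab1 was not called, and Egr4 was not tested because its probe was too dim.

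The other immediate early genes include phosphatases, kinases and zinc finger factors that rise early after a signal. Of 37 tested, 17 rose and 3 fell with EBF1wt (median 0.37), and 16 rose and 6 fell with EBF1-H240A (median 0.24), the last count being 3 without Empty array 2. Over all genes, 17.2% rose and 21.3% fell with EBF1wt, and 21.6% rose and 23.0% fell with EBF1-H240A. Dusp2, a phosphatase of the MAP kinases, rose most with both proteins: it read 11.84 and 12.08 in Empty, 14.62 to 14.73 in EBF1wt and 14.52 to 14.57 in EBF1-H240A, which are rises of 2.72 ± 0.08 (adjusted p = 2.81e-06) and 2.59 ± 0.08 (adjusted p = 3.35e-06). Sik1, a salt-inducible kinase gene, fell most with EBF1wt (by 1.62, adjusted p = 0.000212, but −0.35 with normexp, where Ier3 was at −1.13), and Ier3, a regulator of survival, fell most with EBF1-H240A (by 1.202, adjusted p = 0.000171). Between the proteins, 2 genes were higher (Trib1, Sik1) and 2 lower (Klf4, Spry2) with EBF1-H240A. Over the 20 alternatives these counts ranged from 1 to 5 and from 1 to 8, and from 1 to 2 for each with an array left out, the Sik1 call being lost in 6 and the Spry2 call in 10 (both genes are given here after their values were seen). Trib1, a pseudokinase gene, read 7.37 to 7.54 in EBF1wt and 8.91 to 9.08 in EBF1-H240A (difference 1.53 ± 0.08, adjusted p = 0.000699). Klf4, a zinc finger factor, read 10.53 to 10.60 in EBF1wt and 9.64 to 9.81 in EBF1-H240A, lower by −0.82 (SE 0.06, adjusted p = 0.0018), and both groups were above the Empty arrays at 8.07 and 8.08.

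**Figure D5:**
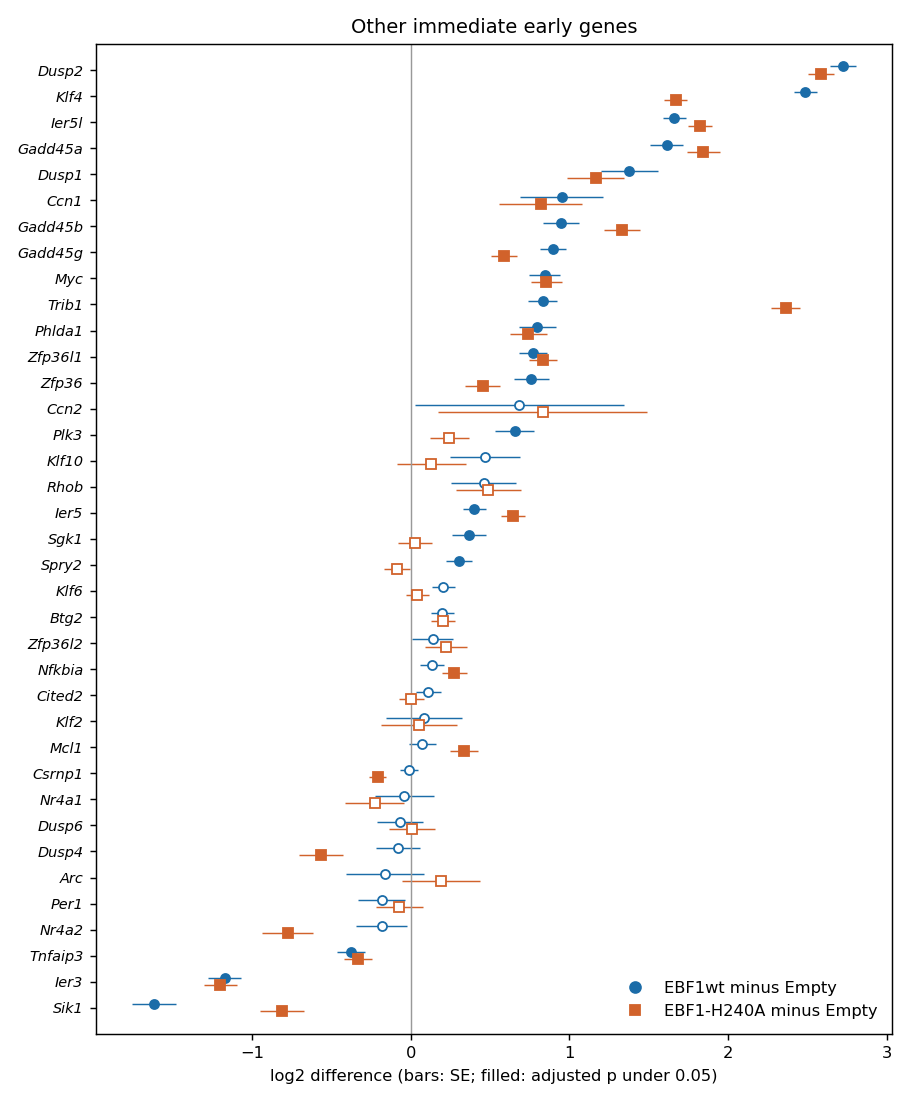
Log2 difference from Empty of the 37 tested immediate early genes of other families, for EBF1wt (circles) and EBF1-H240A (squares), with SE bars. Filled symbols passed an adjusted p of 0.05. Dusp2 and Klf4 lie highest for EBF1wt, Trib1 shows the widest gap between the proteins, and Ier3 and Sik1 lie lowest for EBF1wt.

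Genes for the signal transducers that act on these promoters were called at shares near those of all genes. Of 24 tested, 4 rose and 5 fell with EBF1wt (median −0.06), and 7 rose and 4 fell with EBF1-H240A (median −0.003), so 9 and 11 of the 24 were called, beside 38.4% and 44.6% of all genes. Nfatc3, a calcium-regulated factor, rose most, by 0.84 ± 0.07 with EBF1wt (adjusted p = 0.000205) and by 0.93 ± 0.07 with EBF1-H240A (adjusted p = 0.00011). Mrtfb, a partner of serum response factor, fell most, by 1.54 (adjusted p = 0.00146) and by 1.40 (adjusted p = 0.00172). It was dim, and with normexp background correction these differences were −0.28 (adjusted p = 0.0567) and −0.19 (adjusted p = 0.19), neither called. The kinase gene Rps6ka1 was the 1 gene called between the proteins (0.29 ± 0.07, adjusted p = 0.0483), and that call was lost in 17 of 20 alternatives.

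Markers of the feeder cells, of stress and of other blood cells were read beside the factors, in RNA of cells sorted as GFP+. Of 17 stromal markers tested, 7 rose with EBF1wt and 11 with EBF1-H240A, and none fell. Here and for the marker lists below, the shares of all genes were 17.2% higher and 21.3% lower with EBF1wt. With EBF1-H240A they were 21.6% and 23.0%. Pdgfrb, a growth factor receptor gene, rose most, by 1.54 ± 0.09 (adjusted p = 3.8e-05) and 1.95 ± 0.09 (adjusted p = 1.17e-05). The brightest probes of the list were those of Acta2, Pdgfrb and Timp3, and Pdgfra, Lum, Postn and Thbs1 did not pass the filter on dim probes. The summed signal of the list ran from 10160 to 10663 in Empty, from 12406 to 14889 in EBF1wt and from 14380 to 15614 in EBF1-H240A, and most of it was Acta2. The median log2 signal of the list, by contrast, did not separate EBF1wt (5.94 to 6.76) from Empty (6.17 on both arrays), and was 6.36 to 6.56 in EBF1-H240A.

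Of 12 heat shock genes, 2 rose and 3 fell with EBF1wt, and 3 rose and 3 fell with EBF1-H240A. Of all genes, 38.4% and 44.6% were called in either direction in these comparisons. Hspa1a, the inducible HSP70 gene, rose by 3.17 and 2.77. The largest falls were those of Dnaja1 with EBF1wt (by 0.41, not called when its probes were averaged) and of Hspd1 with EBF1-H240A (by 0.54), and the brightest probes were those of Hspa8, Hsp90aa1 and Hspd1. The summed signal of the 12 ran from 90540 to 95817 in Empty, from 83324 to 86959 in EBF1wt and from 81274 to 86428 in EBF1-H240A.

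Of 9 macrophage markers tested, 1 rose and 5 fell with EBF1wt, and 2 rose and 5 fell with EBF1-H240A. Csf1r, a growth factor receptor gene of these cells, rose most, by 1.42 and 2.001 (adjusted p = 0.000506 and 9.17e-05), and the largest falls were those of Cx3cr1 with EBF1wt (by 1.81) and Mrc1 with EBF1-H240A (by 2.16). The summed signal of the list ran from 22402 to 27278 in Empty, from 19057 to 25229 in EBF1wt and from 29290 to 39137 in EBF1-H240A, and most of it was Lyz2. The median log2 signal of the list went the other way, from 8.83 and 8.94 in Empty to between 7.26 and 8.22 in EBF1-H240A. The sum of 6 granulocyte markers ran from 1258 to 1403 in Empty, from 1694 to 1782 in EBF1wt and from 2390 to 2858 in EBF1-H240A. Of these, 2 rose and 2 fell with EBF1wt, and 4 rose and 2 fell with EBF1-H240A. Their median log2 signal was 5.261 and 5.335 in Empty, 4.84 to 5.14 in EBF1wt and 5.86 to 6.91 in EBF1-H240A. The sum of 6 erythroid markers went from 10902 and 11836 in Empty to 2641 to 3201 in EBF1wt and 1922 to 2017 in EBF1-H240A. With each protein 1 of them rose and 3 fell. Their median went the other way, from 4.06 and 3.61 in Empty to 5.82 to 6.02 in EBF1wt and 5.28 to 5.55 in EBF1-H240A. The higher median came from the single gene Alas2. It read 0.67 and 1.30 in Empty, 7.89 to 8.01 in EBF1wt and 6.54 to 7.46 in EBF1-H240A. In Empty most of the sum was Hbb-bt, at 13.02 and 13.17. Hbb-bt read 9.88 to 10.05 in EBF1wt and 9.49 to 9.52 in EBF1-H240A. Of 12 T and innate lymphoid genes, 8 fell and 1 rose with each protein. The part of other cells and of stress in the rise of the 10 factors was not tested, and in bulk samples a changed number of cells of a type and a changed amount of RNA per cell cannot be told apart.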

How the data were processed

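Gene expression was measured on 8 one-colour arrays, 1 per sample, grouped by the transduced vector as the labels give it. Per the file headers and the submitters' processing notes, the authors' scanner output from Agilent Feature Extraction 10.5.1.1 holds processed intensity values on a linear scale, after background subtraction, with mean and background intensities beside them and flags per spot. The deposited series matrix gives log2 values of these arrays (medians 4.90 to 4.93, r = 0.971 to 0.979 with the scanner values). Its centring is not stated, and it served only as an alternative.

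Processed signals of 43379 spots were scaled to the same 75th percentile, values under 1 were set to 1 (4313 spots), log2 was taken, outlier spots were dropped and spots of a probe averaged (41174 probes). No spot was saturated. Probes well above background on at least 2 of 8 arrays were kept (24983), and each gene took its brightest kept probe (5958 of 16309 genes had several). Names were updated through a RefSeq gene table of GRCm38.p6, leaving 7475 probes with the name in the file, and probe positions are those of mm9 per the file headers. limma 3.58.1 (R 4.3.3; lmFit and eBayes, two-sided) was fitted on all 8 arrays with no covariate, with 5 residual degrees of freedom. With 2 or 3 arrays a group, precision is limited. The fit was tested on simulated data.

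The text names all 10 members, the called genes with the largest rise and fall in each other pathway list, and the 3 genes most like Fos, Jun and Egr1. It also names some markers of the stromal, heat shock, macrophage, erythroid, B-lineage and progenitor lists. The members and lists were chosen with earlier results of these data known. Alternatives were another scaling (quantile, or the median of detected probes), normexp background correction (offset 50), the value table, the filter on dim probes, the mean over probes, slide or replicate number as a block, a mean-variance trend, only the 2 groups compared, and each array left out. The dimmer probe of Junb and Ier2 was added after seeing the data.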

Additional observations from a re-analysis of the deposited data

How the results depend on the processing

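Of 600 recomputed differences of the 10 factors over 20 alternatives, 543 kept direction and side of the threshold, 32 were no longer called, 15 became called and 10 changed sign, none of them called. The calls of Egr2 and Egr3 against Empty, and of Jun and Junb for EBF1wt, held in all 20. Atf3, EBF1-H240A minus EBF1wt, was −0.0222 with the value table and −0.0224 to 0.159 with an array left out. Fos, EBF1-H240A minus Empty, was −0.0107 to 0.522 with an array left out, lowest without EBF1-H240A array 1. Ier2, EBF1wt minus Empty, was −0.0407 with normexp, −0.0105 with the value table, −0.16 with the mean over probes and −0.40 with the dimmer probe. Jund, EBF1-H240A minus EBF1wt, was −0.00794 with the value table and −0.0312 to 0.112 with an array left out. Factors called higher with EBF1wt ranged from 4 to 7 when an array was left out, those with EBF1-H240A from 2 to 5, and Egr3 between the proteins from 0 to 1, being 0 also with normexp, the value table or no filter. Factors called lower with EBF1-H240A than with EBF1wt numbered 2 with normexp (Fos, Egr1), 1 with the value table or the filter on all 8 arrays (Egr1), 3 with a mean-variance trend, and 0 to 1 with an array left out. Lower than Empty with EBF1-H240A was 1 (Ier2) with normexp, the mean over probes or the trend, and 0 to 1 with an array left out. The cause was not tested.

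Whether the replicate numbers pair the arrays could not be settled. Deviations from group means correlated at −0.331 to 0.192 over the 7 same-numbered pairs, and 1 of 8 arrays correlated best with its own number. Over pairs on the same slide the range was −0.228 to 0.416. Within a group the deviations cancel, so those of the Empty arrays are exact opposites and their correlations mirror each other. These ranges therefore cannot decide whether the arrays were paired. With the replicate block, 3 factors were called higher with EBF1-H240A and 0 between the proteins, and with EBF1wt the calls of Fos (1.34, adjusted p = 0.0567) and Fosb (1.38, adjusted p = 0.0588) were lost. Over all genes, EBF1-H240A against EBF1wt gave 594 higher and 444 lower, against 208 and 152 with the replicate block, 366 and 280 with the slide block, 391 and 317 with normexp, 348 and 304 with the value table, 188 and 150 without a filter, and 959 and 792 with the trend. For EBF1wt against Empty, 3466 genes were lower, and 2291 without a filter or 1990 without Empty array 1. Dim probes (Fosb, Egr3) limit precision: under normexp their differences shrank, for Egr3 to 0.31 with EBF1wt and 0.56 with EBF1-H240A.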
